A study of Mus musculus with 20 samples.

Results

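The genes Cd40, Cd80, Cd86, Cd83, Cd274, Icosl and Tnfsf9 encode surface proteins through which an antigen-presenting cell helps or restrains a T cell. They were picked by symbol from the 50686 genes counted in 20 RNA-seq libraries of the mouse line RAW264.7. Their RNA was followed in cells given RANKL with I-BET, RANKL alone (50 ng/ml) or I-BET alone (500 nM) for 4, 14 or 24 hours, and in untreated cells taken at hour 0. Each of the 10 groups had 2 libraries. RAW264.7 is a tumour-derived monocyte and macrophage line, which the labels also trace to bone marrow, and it forms osteoclasts when given RANKL. The 7 genes had been put forward as dendritic-like genes that RANKL induces. They were chosen with earlier results of these data known, so the calls here are no independent support for that. Against untreated cells of hour 0, Cd40 was called higher with RANKL at 4 hours, Cd80 at 24 hours and Cd274 at 4, 14 and 24 hours. Cd86, Icosl and Tnfsf9 were called lower at 14 and 24 hours and Cd83 at 14 hours. Whichever library was left out, calls held for Cd40 at 4 hours, Cd83 and Icosl at 14 hours, and Cd80 and Icosl at 24 hours. The other calls did not.

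A T cell that meets its antigen needs further signals from the presenting cell, and these genes encode several of them. CD80 and CD86 bind CD28, which activates, and CTLA-4, which inhibits; ICOS ligand and 4-1BB ligand bind ICOS and 4-1BB, and PD-L1, the product of Cd274, binds the inhibitory receptor PD-1. CD40 works the other way round: it receives CD40 ligand from the T cell and signals through TRAF adaptors to NF-κB, a route it shares with RANK, the receptor of RANKL. CD83 marks mature dendritic cells and holds MHC class II and CD86 at their surface. I-BET is an inhibitor of the BET bromodomain proteins, which read acetylated histones and help transcription of inducible genes.

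The libraries held between 19051780 and 62313792 counted reads. One library stood apart: untreated library 2 had 11.4% of its counts in its 5 most abundant genes, against 3.54% to 6.09% in the other 19, and results that rest on it are given without it. All untreated cells were taken at hour 0, so treatment and time in culture cannot be told apart in any comparison with them, and separate cultures are stated for no pair of libraries, so p-values measure only the spread between the libraries, which may be technical. The macrophage label fitted the summed markers: the summed level of 10 monocyte and macrophage markers, among them Cd68, Csf1r and Lyz2, ran between 3070 and 10200 CPM (counts scaled by the library's total) over the libraries. Lyz2 had the most counts of the 10, and Mertk, with 119 counts over all libraries, did not pass the low-count filter. The summed level of 17 dendritic cell markers ran between 5.72 and 18.2 CPM, with Cd209a and Il12b at 0 in every library and Ccr7 at 1 count in all. The 5 B cell markers together reached at most 0.267 CPM and the 8 stromal and epithelial markers at most 0.0748 CPM. The 7 T cell markers reached at most 3.86 CPM, with Lck the single one of them above the low-count filter.

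RefSeq promoter windows (GRCm38.p6) were at hand for 3 of the 7 genes, Cd80, Cd274 and Icosl. They are shown because they include genes called lower (Cd80, Cd274) and higher (Icosl) with I-BET added to RANKL. Each window is the 250 bases before RefSeq's start, in lower case, and capitals mark the one match found to the 4 motifs searched; for Icosl the line stops after 184 bases, where GENCODE's gene model begins. GENCODE's model of Cd80 starts further upstream, at 38455561, so the Cd80 window lies within that model.
Cd80, chr16:38458683-38458932, plus strand: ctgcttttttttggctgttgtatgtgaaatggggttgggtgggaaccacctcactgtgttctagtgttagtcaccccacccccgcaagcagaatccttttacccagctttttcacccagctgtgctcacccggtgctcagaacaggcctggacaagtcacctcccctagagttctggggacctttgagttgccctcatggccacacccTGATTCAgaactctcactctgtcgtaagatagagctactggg
Cd274, chr19:29367188-29367437, plus strand: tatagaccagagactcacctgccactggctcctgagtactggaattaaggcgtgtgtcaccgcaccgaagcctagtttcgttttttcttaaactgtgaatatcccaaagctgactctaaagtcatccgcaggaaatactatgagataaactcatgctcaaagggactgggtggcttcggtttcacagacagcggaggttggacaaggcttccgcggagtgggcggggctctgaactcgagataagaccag
Icosl, chr10:78069118-78069301, plus strand: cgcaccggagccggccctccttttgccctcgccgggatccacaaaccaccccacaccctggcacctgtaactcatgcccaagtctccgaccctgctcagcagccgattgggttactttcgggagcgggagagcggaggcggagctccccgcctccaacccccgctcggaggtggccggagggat
The motifs were searched on both strands as GGGNNNTTCC for NF-κB, TGANTCA for AP-1, TTCNNNGAA for STAT (GAS) and GAAANNGAAA for interferon-stimulated elements (ISRE). The Cd80 window held 1 match, an AP-1 motif at bases 209 to 215, which starts 42 bases before RefSeq's start. An AP-1 match of this form occurred in 6.75% of 32851 RefSeq windows of the same length. The NF-κB, GAS and ISRE forms occurred in 4.65%, 7.02% and 2.98% of windows and were in none of the 3 shown. The G and C content was 52.8% for Cd80, 50.4% for Cd274 and 68.8% for Icosl. A match is a run of letters and says nothing about whether a factor was bound. Cd40, Cd86, Cd83 and Tnfsf9 had no entry.

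Levels are given as RPKM, reads scaled by gene length and by the library's total, as library 1 and then library 2 of a group. Differences are log2 fold changes from edgeR's quasi-likelihood test, each with its standard error (SE), and a difference was called where the p-value adjusted over 16042 genes was under 0.05. By group means, Cd83 and Tnfsf9 were the most abundant of the 7 in every group, and Cd86 was the least abundant in each group except I-BET at 24 hours, where Cd40 was lower still. In a bulk sample, fewer cells that express a gene and less RNA per cell cannot be told apart.

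**Figure D1:**
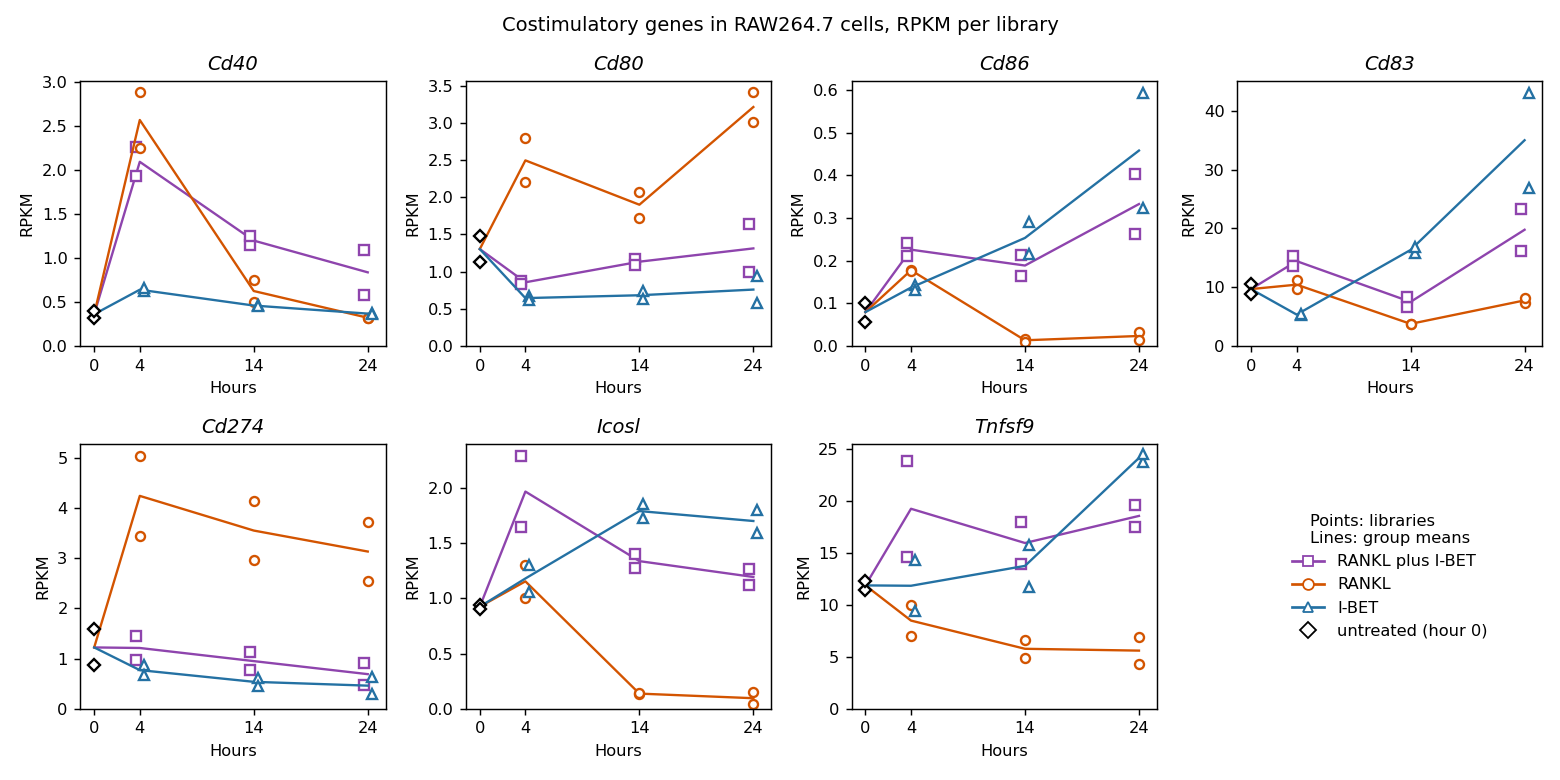
RPKM of each of the 7 genes by hours of treatment; points are libraries and lines join group means, with RANKL plus I-BET, RANKL, I-BET and untreated cells at hour 0. Cd80 and Cd274 lie highest with RANKL alone, whereas Cd86, Icosl and Tnfsf9 lie lowest with RANKL alone at 14 and 24 hours.

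Cd40 (ENSMUSG00000017652, chromosome 2, 165055627 to 165072948, plus strand), the receptor of the set, was briefly raised by RANKL. Its levels were 2.26 and 2.89 RPKM after 4 hours of RANKL, 0.5 and 0.754 after 14 hours, and 0.322 and 0.323 after 24 hours. Untreated cells held 0.324 and 0.402 RPKM. Both RANKL libraries at 4 hours stood above both untreated ones, by 2.72 on the log2 scale (SE 0.30, adjusted p = 0.000169, 6.57-fold), and the call held when any 1 of the 4 libraries was left out. Cd40 then fell by 1.96 (SE 0.28, adjusted p = 0.000285) between 4 and 14 hours of RANKL, again in every leave-one-out fit. At 14 hours its level was 0.75 above untreated cells (adjusted p = 0.11) and at 24 hours the log2 fold change was -0.26 (adjusted p = 0.652), neither of which passed the test.

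With I-BET added to RANKL, the early level of Cd40 was not measurably different and the later decline was smaller. The combination gave 1.93 and 2.26 RPKM at 4 hours, 1.15 and 1.25 at 14 hours, and 1.10 and 0.582 at 24 hours. At 4 hours these libraries overlapped those with RANKL alone, and the difference was -0.32 (SE 0.26, adjusted p = 0.574). At 14 hours Cd40 was higher by 0.89 than with RANKL alone (SE 0.28, adjusted p = 0.0346) and at 24 hours by 1.34 (SE 0.295, adjusted p = 0.00374), with no overlap at either time. The call at 14 hours was lost without RANKL library 1 (adjusted p = 0.236), RANKL plus I-BET library 1 (0.0799) or RANKL plus I-BET library 2 (0.184), and the call at 24 hours without RANKL plus I-BET library 1 (0.065).

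Under I-BET alone Cd40 stayed low, at 0.626 and 0.658 RPKM at 4 hours, 0.470 and 0.452 at 14 hours, and 0.372 and 0.367 at 24 hours. None of these differed from untreated cells by the test, with log2 fold changes of 0.63, 0.21 and -0.09 and adjusted p of 0.237, 0.78 and 0.891. RANKL plus I-BET was above I-BET alone by 1.77 at 4 hours (SE 0.28, adjusted p = 0.00983) and by 1.43 at 14 hours (SE 0.28, adjusted p = 0.0333). The first of these calls was lost without I-BET library 1 (adjusted p = 0.147), I-BET library 2 (0.158) or RANKL plus I-BET library 2 (0.0915), and that at 14 hours was lost whichever of the 4 libraries was left out (0.186 to 0.26). At 24 hours the gap of 1.17 was not called (adjusted p = 0.174), although it was with library number as a block (0.0136) and by DESeq2 (0.0205).

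Cd80 (ENSMUSG00000075122, chromosome 16, 38458933 to 38486933, plus strand), a ligand of CD28 and CTLA-4, was the member with the clearest late rise under RANKL. Its levels were 2.79 and 2.20 RPKM after 4 hours of RANKL, 2.07 and 1.73 after 14 hours, and 3.0 and 3.42 after 24 hours. Untreated cells held 1.48 and 1.13 RPKM, below every RANKL library. The rise was called at 24 hours, at 1.27 (SE 0.25, adjusted p = 0.00248, 2.42-fold), in each leave-one-out fit. The differences at 4 hours (0.88, adjusted p = 0.0676) and 14 hours (0.56, adjusted p = 0.155) were not called, and both were with library number as a block (0.0062 and 0.0478). That at 4 hours was also called by DESeq2 (0.0313) and by limma on log2 RPKM with 1 added (0.0324).

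I-BET lowered Cd80 with and without RANKL. RANKL plus I-BET gave 0.875 and 0.839 RPKM at 4 hours, 1.17 and 1.09 at 14 hours, and 1.64 and 0.99 at 24 hours, each pair below the RANKL pair of its hour. The fall against RANKL was -1.56 at 4 hours (SE 0.25, adjusted p = 0.00121) and -1.33 at 24 hours (SE 0.24, adjusted p = 0.000948), in every leave-one-out fit. The call at 14 hours, -0.79 (SE 0.25, adjusted p = 0.0349), was lost whichever of the 4 libraries was left out, with adjusted p of 0.0765 to 0.183. I-BET alone gave 0.666 and 0.623 RPKM at 4 hours, 0.740 and 0.626 at 14 hours, and 0.943 and 0.575 at 24 hours, all below both untreated libraries. Against untreated cells these were -1.15 (adjusted p = 0.0142), -1.0 (0.0201) and -0.83 (0.0396). The calls at 4 and 14 hours were lost without any 1 of the 4 libraries (0.0592 to 0.112 and 0.0665 to 0.133), and that at 24 hours without untreated library 1 (0.189), untreated library 2 (0.0996) or I-BET library 2 (0.274).

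Cd86 (ENSMUSG00000022901, chromosome 16, 36603869 to 36666081, minus strand), the other CD28 and CTLA-4 ligand, was lower with RANKL at 14 and 24 hours. It was the least abundant member, and after 14 hours of RANKL the libraries held 3 and 2 counts, or 0.0166 and 0.0106 RPKM. After 24 hours of RANKL they held 5 and 2 counts, or 0.0341 and 0.0134 RPKM. At 4 hours the RANKL libraries had held 37 and 29 counts, or 0.179 and 0.176 RPKM. Untreated cells had 4 and 15 counts, or 0.0574 and 0.102 RPKM, so counting error is wide in that group and in the late RANKL groups.

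Cd86 fell by 3.58 between 4 and 14 hours of RANKL (SE 0.51, adjusted p = 0.000289), in each leave-one-out fit. Against untreated cells the fall was -2.60 at 14 hours (SE 0.57, adjusted p = 0.00534) and -1.88 at 24 hours (SE 0.54, adjusted p = 0.0255), and neither pair overlapped. Both calls rested on a few reads: the first was lost without untreated library 2 (adjusted p = 0.236) or RANKL library 2 (0.0525), and the later one without untreated library 2 (0.472) or RANKL library 2 (0.161). At 4 hours the difference of 0.98 was not called (adjusted p = 0.287).

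With I-BET, Cd86 did not reach such low levels. With both agents it measured 0.211 and 0.240 RPKM at 4 hours, 0.212 and 0.165 at 14 hours, and 0.403 and 0.263 at 24 hours. The gap over RANKL alone was 3.67 at 14 hours (SE 0.51, adjusted p = 0.000168, 12.7-fold) and 3.74 at 24 hours (SE 0.47, adjusted p = 4.48e-05, 13.4-fold), and both calls were made in each leave-one-out fit; at 4 hours it was 0.33 (adjusted p = 0.721). I-BET alone gave 0.142 and 0.132 RPKM at 4 hours, 0.290 and 0.217 at 14 hours, and 0.592 and 0.324 at 24 hours. I-BET alone exceeded untreated cells by 2.33 at 24 hours (SE 0.41, adjusted p = 0.00107), in every leave-one-out fit. At 14 hours it exceeded them by 1.47 (adjusted p = 0.0292), a call lost without untreated library 1 (0.208), I-BET library 1 (0.158) or I-BET library 2 (0.058).

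The balance between the CD28 ligands is given as the ratio of Cd80 to Cd86 per unit of gene length, with no test of its own. RANKL gave ratios of 15.6 and 12.5 at 4 hours, 125 and 162 at 14 hours, and 88.2 and 256 at 24 hours. Untreated cells stood at 25.8 and 11. RANKL plus I-BET held the ratio between 3.49 and 6.62 over its 6 libraries and I-BET alone between 1.59 and 4.73, so each library with I-BET lay below each library without it. The late RANKL ratios have wide exact 95% intervals, 42.0 to 611 and 44.2 to 1350 at 14 hours, and all such intervals cover counting error only. Their lower ends were still above the highest ratio in any library with I-BET.

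**Figure D2:**
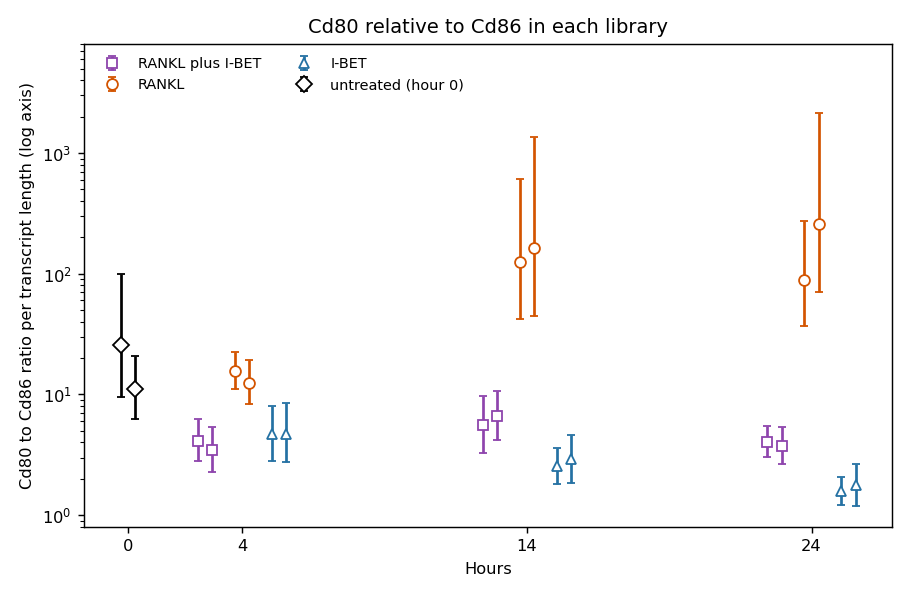
Ratio of Cd80 to Cd86 reads per unit of gene length in each library, on a log axis, by hours of treatment, with exact 95% intervals for counting error. Libraries with I-BET lie between 1.59 and 6.62, and those with RANKL alone reach 88.2 to 256 at 24 hours.

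Cd274 (ENSMUSG00000016496, chromosome 19, 29367455 to 29388095, plus strand), which encodes the inhibitory ligand PD-L1, was raised by RANKL at each time. Its levels were 5.04 and 3.44 RPKM after 4 hours of RANKL, 4.14 and 2.96 after 14 hours, and 3.72 and 2.54 after 24 hours. Untreated cells held 1.58 and 0.865 RPKM, below all of these. The rise was 1.77 at 4 hours (SE 0.39, adjusted p = 0.0189), 1.58 at 14 hours (SE 0.38, adjusted p = 0.0108) and 1.35 at 24 hours (SE 0.38, adjusted p = 0.0244). None of the 3 calls survived the loss of untreated library 2, with adjusted p of 0.268, 0.14 and 0.229, or of RANKL library 1, with 0.153, 0.0714 and 0.151. In each treated group and in untreated cells library 1 was above library 2, and with library number as a block the Cd274 differences between I-BET and untreated cells were called at 4 and 14 hours too (adjusted p = 0.0015 and 9.69e-06).

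With I-BET added, Cd274 was lower than with RANKL alone at each hour. RANKL plus I-BET gave 1.46 and 0.965 RPKM at 4 hours, 1.12 and 0.777 at 14 hours, and 0.905 and 0.475 at 24 hours, each pair below that of RANKL alone. The fall against RANKL was -1.82 at 4 hours (SE 0.38, adjusted p = 0.00653), -1.96 at 14 hours (SE 0.39, adjusted p = 0.00222) and -2.22 at 24 hours (SE 0.39, adjusted p = 0.000716). The last of these calls and that at 14 hours were made in each leave-one-out fit, and the call at 4 hours was lost without RANKL library 1 (0.0536) or RANKL plus I-BET library 2 (0.0737). I-BET alone gave 0.876 and 0.665 RPKM at 4 hours, 0.618 and 0.457 at 14 hours, and 0.629 and 0.293 at 24 hours. Against untreated cells the call was made at 24 hours, at -1.42 (SE 0.41, adjusted p = 0.0257), and was lost without untreated library 1 (0.193) or I-BET library 2 (0.189).

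Icosl (ENSMUSG00000000732, chromosome 10, 78069360 to 78079525, plus strand), the ligand of ICOS, fell most of the 7 against untreated cells at 14 and 24 hours of RANKL. Its levels were 1.3 and 1.0 RPKM after 4 hours of RANKL, 0.132 and 0.143 after 14 hours, and 0.0432 and 0.148 after 24 hours. Untreated cells held 0.943 and 0.905 RPKM. The fall against untreated cells was -2.75 at 14 hours (SE 0.34, adjusted p = 6.93e-05, 6.72-fold lower) and -3.31 at 24 hours (SE 0.36, adjusted p = 1.7e-05, 9.89-fold lower), and each leave-one-out fit made both calls. At 4 hours the difference was 0.24 (adjusted p = 0.857), so the decline came between 4 and 14 hours, where it was -2.99 (SE 0.33, adjusted p = 4.34e-05).

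Every library with I-BET held more Icosl than any RANKL library at 14 or 24 hours. RANKL plus I-BET gave 1.65 and 2.29 RPKM at 4 hours, 1.27 and 1.40 at 14 hours, and 1.12 and 1.27 at 24 hours, all above the RANKL libraries of the same hour. The excess over RANKL alone was 3.23 at 14 hours (SE 0.33, adjusted p = 1.2e-05, 9.40-fold) and 3.59 at 24 hours (SE 0.35, adjusted p = 5.53e-06, 12.1-fold), in every leave-one-out fit. At 4 hours it was 0.75 and not called in the main fit (adjusted p = 0.108). It was called with library number as a block (0.00737), by DESeq2 (0.0214) and by limma on log2 RPKM with 1 added (0.0221). I-BET alone gave 1.06 and 1.3 RPKM at 4 hours, 1.73 and 1.85 at 14 hours, and 1.80 and 1.60 at 24 hours. Its excess over untreated cells was 0.86 at 14 hours (adjusted p = 0.0656) and 0.80 at 24 hours (adjusted p = 0.074), neither called in the main fit. Several other settings called both. Among them were library number as a block (0.00313 and 0.00427), DESeq2 (0.00783 and 0.0131) and limma on log2 RPKM with 1 added (0.00705 and 0.00964).

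Tnfsf9 (ENSMUSG00000035678, chromosome 17, 57105385 to 57107757, plus strand), which encodes 4-1BB ligand, was lower with RANKL, and higher when I-BET was added to it. Its levels were 7.04 and 9.95 RPKM after 4 hours of RANKL, 4.89 and 6.67 after 14 hours, and 4.32 and 6.89 after 24 hours. Untreated cells held 11.5 and 12.3 RPKM, above each of them. The fall was -1.04 at 14 hours (SE 0.33, adjusted p = 0.0394) and -1.14 at 24 hours (SE 0.33, adjusted p = 0.0267). The call at 14 hours was lost whichever of the 4 libraries was left out (0.0577 to 0.224), and that at 24 hours without untreated library 1 (0.0569), untreated library 2 (0.157) or RANKL library 1 (0.207). At 4 hours the difference of -0.56 was not called (adjusted p = 0.493), and was with library number as a block (0.00923).

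In cells given RANKL plus I-BET, Tnfsf9 stood at 14.6 and 23.9 RPKM at 4 hours, 14.0 and 18.0 at 14 hours, and 17.6 and 19.6 at 24 hours, above every RANKL library. The excess over RANKL alone was 1.164 at 4 hours (SE 0.32, adjusted p = 0.0306), 1.42 at 14 hours (SE 0.33, adjusted p = 0.0059) and 1.69 at 24 hours (SE 0.33, adjusted p = 0.00149, 3.23-fold). The call at 24 hours was made in each leave-one-out fit. The call at 4 hours was lost without RANKL library 1 (0.235), RANKL library 2 (0.0569) or RANKL plus I-BET library 2 (0.298), and that at 14 hours without RANKL library 1 (0.0647) or RANKL plus I-BET library 2 (0.0651). I-BET alone gave 9.38 and 14.3 RPKM at 4 hours, 11.7 and 15.8 at 14 hours, and 23.8 and 24.5 at 24 hours. The excess of 0.94 over untreated cells at 24 hours was not called in the main fit (adjusted p = 0.0595). Several other settings called it, among them library number as a block (1.12e-05), DESeq2 (0.0239) and limma on log2 RPKM with 1 added (0.0211).

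Cd83 (ENSMUSG00000015396, chromosome 13, 43785107 to 43803130, plus strand), the maturation marker, dipped with RANKL and climbed with I-BET. Its levels were 11.2 and 9.70 RPKM after 4 hours of RANKL, 3.78 and 3.78 after 14 hours, and 7.35 and 8.19 after 24 hours. Untreated cells held 10.5 and 8.86 RPKM. At 14 hours its difference from untreated cells was -1.35 (SE 0.21, adjusted p = 0.000462), and it had fallen by 1.40 since 4 hours of RANKL (SE 0.21, adjusted p = 0.000408), both in every leave-one-out fit. It then rose by 1.0 between 14 and 24 hours (SE 0.21, adjusted p = 0.0187), a call lost without RANKL library 1 at 14 hours (0.124), library 2 at 14 hours (0.116) or library 2 at 24 hours (0.145). At 4 and 24 hours RANKL and untreated cells differed by 0.04 (adjusted p = 0.99) and -0.36 (adjusted p = 0.264).

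Cd83 under RANKL plus I-BET stood at 15.3 and 13.6 RPKM at 4 hours, 6.70 and 8.35 at 14 hours, and 23.3 and 16.2 at 24 hours, above RANKL alone at each hour. The excess was 0.45 at 4 hours (adjusted p = 0.195), 0.95 at 14 hours (SE 0.21, adjusted p = 0.00419) and 1.31 at 24 hours (SE 0.20, adjusted p = 0.000269). The call at 14 hours was lost without RANKL plus I-BET library 2 (0.0645). I-BET alone gave 5.30 and 5.42 RPKM at 4 hours, 15.8 and 16.9 at 14 hours, and 43.1 and 26.9 at 24 hours. Against untreated cells that was -1.0 at 4 hours (adjusted p = 0.00749), 0.67 at 14 hours (adjusted p = 0.0414) and 1.78 at 24 hours (SE 0.21, adjusted p = 4.03e-05, 3.43-fold). The last held in each leave-one-out fit, the first was lost without either I-BET library (0.0513 and 0.0646), and the one at 14 hours was lost whichever library was left out (0.089 to 0.204).

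Between cells with and without RANKL that all had I-BET, Cd83 changed direction over time. RANKL plus I-BET was above I-BET alone by 1.49 at 4 hours (SE 0.21, adjusted p = 0.00383) and the difference was -1.07 at 14 hours (SE 0.20, adjusted p = 0.0272), and the libraries did not overlap at either time. The call at 4 hours was lost without I-BET library 1 (0.0702) or I-BET library 2 (0.0812), and that at 14 hours whichever library was left out (0.0658 to 0.366). At 24 hours the difference was -0.82 (adjusted p = 0.167, or 0.0384 with library number as a block and 0.0137 by DESeq2).

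**Figure D3:**
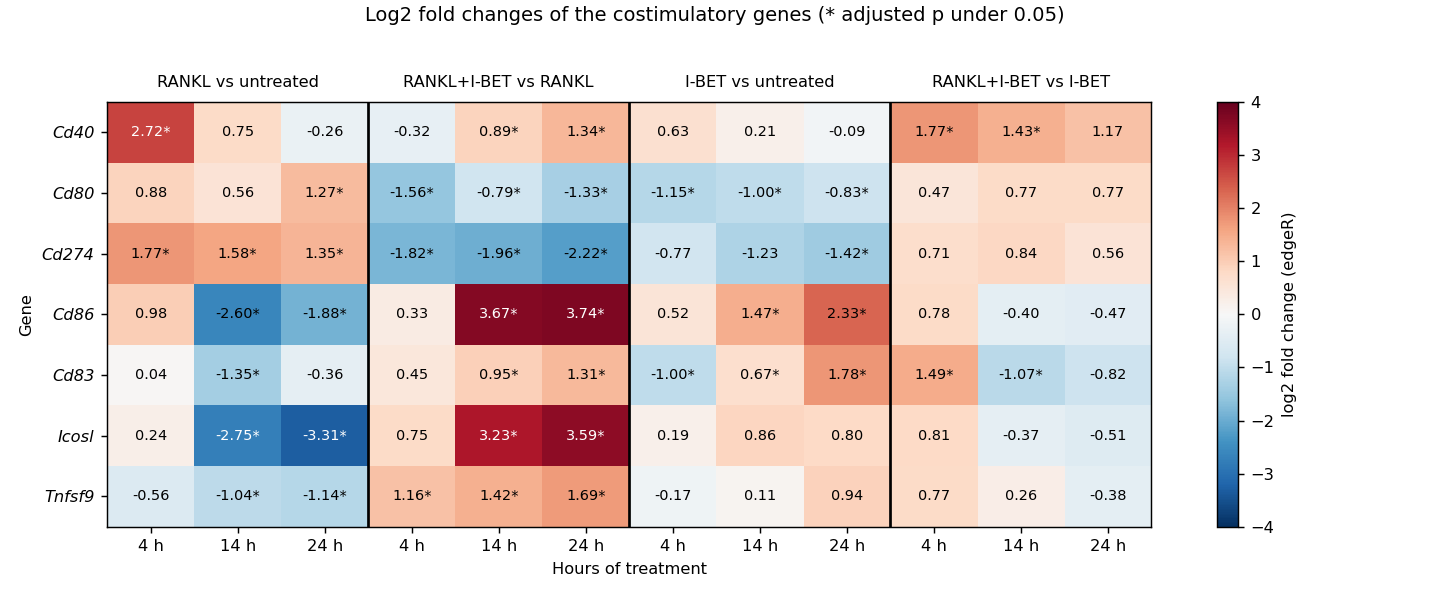
Log2 fold change of each of the 7 genes in 4 comparisons at 4, 14 and 24 hours: from left to right RANKL against untreated, RANKL plus I-BET against RANKL, I-BET against untreated, and RANKL plus I-BET against I-BET; an asterisk marks an adjusted p under 0.05. With I-BET added to RANKL, Cd80 and Cd274 are negative at each hour and Cd86, Cd83, Icosl and Tnfsf9 are positive, of which Tnfsf9 is called at 4 hours and all 4 at 14 and 24 hours.

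Counted over the set, I-BET added to RANKL called 3 of the 7 genes at 4 hours, 1 higher and 2 lower, where 11.4% of all genes tested were called (4.93% higher and 6.46% lower), and 1 of the 3 calls was made in each leave-one-out fit. At 14 hours it called all 7, 5 higher and 2 lower, where 22.1% of all genes were called (10.8% higher and 11.2% lower), and 3 of the 7 calls were made in each such fit. At 24 hours it again called all 7, 5 higher and 2 lower, with 26.8% of all genes called (13.9% higher and 12.9% lower), and 6 of the 7 calls were made in each. The median log2 fold change of the 7 at 24 hours was 1.34, beside -0.05 over all genes tested.

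RANKL against untreated cells called 2 of the 7 at 4 hours, both higher, where 3.91% of all genes were called (2.08% higher and 1.83% lower). It called 5 at 14 hours, 1 higher and 4 lower, with 18.4% of all genes called (8.31% higher and 10.1% lower). It called 5 at 24 hours, 2 higher and 3 lower, with 18.9% of all genes called (8.04% higher and 10.9% lower). Of these, 1, 2 and 2 calls at 4, 14 and 24 hours were made in every leave-one-out fit: Cd40 at 4 hours, Cd83 and Icosl at 14 hours, and Cd80 and Icosl at 24 hours. With library number as a block 4, 6 and 5 genes were called. Between 4 and 14 hours of RANKL 4 of the 7 were called lower, Cd40, Cd86, Cd83 and Icosl, where 17.7% of all genes were called (8.02% higher and 9.71% lower). Between 14 and 24 hours 1 gene, Cd83, was called, where 2.9% of all genes were (1.13% higher and 1.78% lower).

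I-BET alone against untreated cells called 2 of the 7 at 4 hours, both lower, with 10.5% of all genes called (4.03% higher and 6.48% lower). It called 3 at 14 hours, 2 higher and 1 lower, with 13.7% of all genes called (5.29% higher and 8.37% lower). It called 4 at 24 hours, 2 higher and 2 lower, with 17.7% of all genes called (7.5% higher and 10.2% lower). Of these calls 0 of 2, 0 of 3 and 2 of 4 at 4, 14 and 24 hours were made in every leave-one-out fit. With I-BET already present, RANKL called 2 of the 7 at 4 hours, both higher, where 0.517% of all genes were called (0.48% higher and 0.0374% lower). It called 2 at 14 hours, 1 higher and 1 lower, where 0.904% of all genes were called (0.549% higher and 0.355% lower). None of these 4 calls was made in every leave-one-out fit. At 24 hours edgeR called none of the 7, where 0.262% of all genes were called (0.106% higher and 0.156% lower). At that hour 3 members, Cd40, Cd80 and Cd83, had an unadjusted p under 0.05, DESeq2 called 2, and limma on log2 RPKM called 0.

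Whether the RANKL effect itself differed with I-BET was tested by an interaction term, the difference between RANKL plus I-BET over I-BET and RANKL over untreated cells. The first part compares cells of the same hour, and the second uses untreated cells of hour 0. Time in culture therefore enters the interaction term and cannot be told apart from treatment in it. It called Icosl at 14 hours, at 2.37 (SE 0.43, adjusted p = 0.0082), and at 24 hours, at 2.80 (SE 0.46, adjusted p = 0.00201), where 2.78% of all genes were called at 14 hours (2.28% higher and 0.499% lower) and 5.25% at 24 hours (3.94% higher and 1.32% lower). The RANKL effect on Icosl was -0.37 at 14 hours and -0.51 at 24 hours in cells with I-BET, neither of which passed the test, beside -2.75 and -3.31 in cells without it. The call at 14 hours was lost without RANKL library 1 (0.0506), and that at 24 hours held whichever of the 8 libraries was left out, with adjusted p of 0.000188 to 0.0116. By limma on log2 RPKM with 1 added Icosl was not called at 14 hours (adjusted p = 0.139) or 24 hours (0.0915), and with 0.1 added it was called at both hours. In the main fit no other member was called at 14 or 24 hours, and DESeq2 called Cd40 as well at 24 hours (adjusted p = 0.0308). At 4 hours edgeR called none of the 7 and 0.0% of all genes, 3 members (Cd40, Cd83 and Tnfsf9) had an unadjusted p under 0.05, DESeq2 called 1 and limma 0.

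Library number as a block moved these interaction counts to 3, 4 and 4 members at 4, 14 and 24 hours. The differences and adjusted p that follow are from the blocked fit. Tnfsf9 was among them each time, with RANKL effects higher under I-BET by 1.323, 1.306 and 0.756 and blocked adjusted p of 0.00118, 0.000131 and 0.0101. Cd274 was also among them each time, with RANKL effects that differed by -1.059, -0.713 and -0.785 and blocked adjusted p of 0.0158, 0.0444 and 0.0202. Cd83 at 4 hours (1.452, blocked adjusted p = 0.0307), Cd86 at 14 hours (2.293, 0.0394) and Cd40 at 24 hours (1.438, 0.0196) completed them, beside Icosl at 14 and 24 hours.

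**Figure D4:**
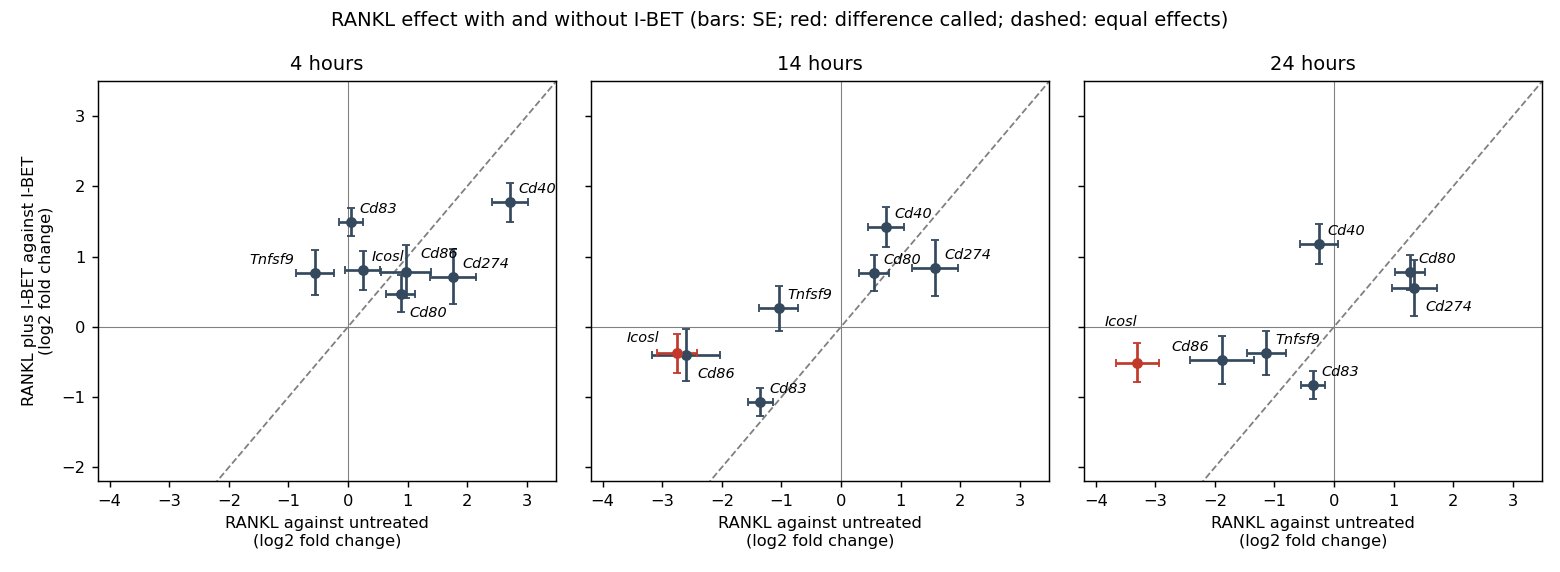
Log2 fold change by RANKL in cells with I-BET (vertical axis) against that in cells without it (horizontal axis) for the 7 genes at 4, 14 and 24 hours, with standard errors; points on the dashed line would have equal effects. Icosl, in red, is the gene whose effects were called different in the main edgeR fit, at 14 and 24 hours. With library number as a block 3, 4 and 4 genes were called at 4, 14 and 24 hours.

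Genes that carry CD40 and RANK signals to NF-κB mostly rose with RANKL or did not pass the test. Of 15 genes of this NF-κB route, all tested, 8 rose and none fell with RANKL at 4 hours, 9 rose and 1 fell at 14 hours, and 7 rose and 1 fell at 24 hours. Of all genes tested 2.08%, 8.31% and 8.04% rose and 1.83%, 10.1% and 10.9% fell at these hours. Traf1, an adaptor of TNF receptors, was higher by 3.02, 3.63 and 3.62 than in untreated cells at 4, 14 and 24 hours, Nfkbie, an inhibitor of NF-κB, by 2.08, 2.18 and 1.80, and Nfkb2, an NF-κB subunit, by 1.46, 2.05 and 1.68, with adjusted p of at most 0.000314. With I-BET added to RANKL 0 of the 15 rose and 1 fell at 4 hours, 1 rose and 3 fell at 14 hours, and 1 rose and 5 fell at 24 hours. Of all genes tested 4.93%, 10.8% and 13.9% rose and 6.46%, 11.2% and 12.9% fell in that comparison. The same shares of both comparisons apply to the counts of each list below, where most are not repeated. A count near its share says nothing particular about a list. With I-BET added, Traf1 fell by 1.60, 1.84 and 3.04 (adjusted p = 0.00389, 0.000633 and 9.88e-06), at 2.68 and 1.02 RPKM with RANKL plus I-BET at 24 hours, against 13.9 and 15.6 RPKM with RANKL. The median of the 15 at 24 hours was -0.33, beside -0.05 over all genes.

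Of the receptors that the members bind on T cells, 4 of 6 were above the filter in these macrophages. Cd40lg had no count in any library and Ctla4 had 6 in all. Pdcd1, which encodes PD-1, was the most abundant, at 10.6 and 11.1 RPKM after 4 hours of RANKL, 4.17 and 4.78 after 14 hours, and 1.52 and 2.84 after 24 hours. Untreated cells held 5.09 and 3.93 RPKM. RANKL plus I-BET gave 5.29 and 4.18 RPKM at 4 hours, 0.613 and 0.410 at 14 hours, and 0.280 and 0.326 at 24 hours, with log2 differences from RANKL alone of -1.21 (adjusted p = 0.0118), -3.21 (1.35e-05) and -2.88 (2.84e-05). The first of these calls was lost without RANKL library 2 (0.0846) or RANKL plus I-BET library 2 (0.111). Icos, the partner of ICOS ligand, was scarcer: RANKL gave 0.139 and 0.201 RPKM at 4 hours, 0.0532 and 0.0283 at 14 hours, and 0.0363 and 0.0641 at 24 hours, and untreated cells held 0.704 and 0.667 RPKM. With RANKL Icos was lower by 2.08, 4.06 and 3.79 than in untreated cells of hour 0 (adjusted p = 0.00228, 7.53e-06 and 7.34e-06). I-BET alone was below those cells as well, at -2.28, -1.33 and -1.654 at 4, 14 and 24 hours (adjusted p = 0.00084, 0.011 and 0.00218). At 4 hours RANKL plus I-BET differed from I-BET alone by -0.005, which was not called. RANKL plus I-BET was above RANKL alone by 1.94 at 14 hours (0.00283) and 2.06 at 24 hours (0.00107).

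Of 10 genes of MHC class II presentation 5 passed the filter, while the class II chains H2-Aa, H2-Eb1 and H2-Ab1 and the regulator Ciita had 5, 3, 37 and 33 counts over all libraries. RANKL raised none of the 5 and lowered 0, 2 and 2 of them at 4, 14 and 24 hours; those lowered were H2-DMa and Ctss, at -1.34 each at 24 hours. RANKL plus I-BET raised 0, 2 and 2 over RANKL alone. One was Cd74, the class II invariant chain, by 2.16 at 14 hours and 2.56 at 24 hours (adjusted p = 8.16e-05 and 1.54e-05), at 167 and 183 RPKM with RANKL plus I-BET at 24 hours, against 23.0 and 34.9 RPKM with RANKL. The other was H2-DMa, which loads class II with peptide, by 1.22 and 1.34 (adjusted p = 0.000481 and 0.000179).

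Among 13 genes of interferon and JAK-STAT signalling and of PD-L1 stability, routes known to act on Cd274, RANKL raised 1, 0 and 0 and lowered 0, 2 and 5 at 4, 14 and 24 hours. The one raised was Ifngr2, a chain of the interferon-γ receptor, by 0.45 (adjusted p = 0.0154), a call lost without untreated library 2 (0.229) or RANKL library 2 (0.162). With I-BET added to RANKL 2, 6 and 6 rose and 3, 4 and 3 fell. Irf9, the DNA-binding subunit of the interferon complex ISGF3, fell by 1.47, 1.97 and 1.68 (adjusted p = 2.57e-05, 7.77e-07 and 1.26e-06), at 2.10 and 2.18 RPKM with RANKL plus I-BET at 24 hours, against 6.56 and 6.91 RPKM with RANKL. Irf7 was lower at 14 and 24 hours, at -2.456 and -2.449 (adjusted p = 0.00121 and 0.00101). Irf1 was higher at these hours, by 0.769 and 0.981 (0.004 and 0.00054), and so was Stat2, by 0.746 and 0.993 (0.00238 and 0.000208). Stat3 was higher at 4, 14 and 24 hours, by 0.634, 0.546 and 0.773 (adjusted p of at most 0.000294). Cmtm6, which keeps PD-L1 at the surface, was higher by 0.67 at 4 hours (adjusted p = 0.011), a call lost without RANKL library 1 (0.114) or RANKL plus I-BET library 2 (0.119). It was higher by 0.72 at 14 hours (adjusted p = 0.00343), a call lost without RANKL plus I-BET library 2 (0.0689), and by 0.92 at 24 hours (0.000452).

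Other ligands for T cells were called in both directions. Of 17, 12 were tested, and RANKL raised 2, 1 and 2 and lowered 0, 5 and 5 of them at 4, 14 and 24 hours. Icam1, the adhesion ligand of LFA-1, rose by 1.31 at 4 hours (SE 0.20, adjusted p = 0.00165), to 41.5 and 49.1 RPKM with RANKL, against 17.9 and 16.9 RPKM in untreated cells. Cd276, which encodes B7-H3, fell by 1.74 at 14 hours (SE 0.10, adjusted p = 1.94e-07), to 10.7 and 11.3 RPKM with RANKL, against 39.2 and 34.3 RPKM in untreated cells. With I-BET added to RANKL 0, 2 and 2 of the 12 rose and 3, 2 and 3 fell. Tnfsf8, which encodes CD30 ligand, was among the fallen, with 0 and 1 counts under RANKL plus I-BET at 24 hours, against 45 and 161 counts under RANKL.

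The dendritic cell markers did not rise together with RANKL. Of 17 listed 9 were tested, and RANKL raised 1, 2 and 2 and lowered 0, 2 and 2 at 4, 14 and 24 hours. Their summed level was 13.6 to 18.2 CPM at 4 hours of RANKL, 10.5 to 15.4 at 14 hours and 8.72 to 9.33 at 24 hours, and in untreated cells 9.30 to 11.9 CPM. Fscn1, the actin bundler of mature dendritic cells, rose by 2.62 at 14 hours (adjusted p = 0.000879) and by 1.87 at 24 hours (0.00838), and the call at 24 hours was lost without untreated library 2 (0.116). Zbtb46 was higher at both hours, at 0.991 and 1.019 (adjusted p = 0.0458 and 0.0407), and Ccl22 was the marker raised at 4 hours, at 5.983 (0.0224). Clec10a, a lectin, fell by 2.94 and 3.51 (adjusted p = 0.00097 and 0.000349). Siglech was lower as well, at -5.2 and -9.21 (adjusted p = 0.000528 and 0.000156). Counts were low for Siglech and Ccl22, at most 66 and 90 in a library. With I-BET added to RANKL, Fscn1 fell by 3.09 at 14 hours and 4.06 at 24 hours (adjusted p = 0.000215 and 3.54e-05). Itgax was lower too, at -2.345 and -1.741 (adjusted p = 0.00417 and 0.0201). Clec10a went the other way and was called higher at 24 hours, at 1.583 (adjusted p = 0.048). The other tested dendritic markers were called at neither hour. At 4 hours Xcr1 alone was called, at -2.118 (adjusted p = 0.0249). The summed monocyte and macrophage markers stood at 4080 to 5070 CPM at 14 hours of RANKL and 3070 to 3520 at 24 hours, and at 8670 to 8860 CPM in untreated cells. Lyz2 had the most counts of them, 3143887 over all libraries, and weighs most in the sum. Of the 9 tested, 6 were called lower at both times, where 10.1% and 10.9% of all genes were. Spi1 was called higher at 14 hours, at 0.521 (adjusted p = 0.0189), and Cd68 and Cd14 were called at neither time. With RANKL plus I-BET the summed macrophage markers stood at 6050 to 7320 CPM at 14 hours and 5010 to 5550 at 24 hours. Lck, the one T cell marker tested, was higher with RANKL at 24 hours by 1.303 (adjusted p = 0.00561), and the 7 T cell markers together stood at 3.22 to 3.86 CPM there, against 1.15 to 1.52 CPM in untreated cells, with Cd8a at 0 and Cd3e at 2 counts over all libraries. The 6 osteoclast markers were all tested, and their summed level was 14.0 to 22.3 CPM with RANKL plus I-BET at 14 hours and 12.6 to 20.4 at 24 hours, against 231 to 320 and 496 to 646 CPM with RANKL alone and 69.2 to 129 CPM in untreated cells. RANKL raised 2, 4 and 6 of them over untreated cells at 4, 14 and 24 hours and lowered none, and with I-BET added to RANKL 3, 6 and 6 were lower than with RANKL alone. The part of these shifts in the members' differences was not tested.

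Levels over the 10 groups show how the members vary among themselves; the groups share libraries' depth and the fit's scaling, and the values are a description. Pearson's r of mean log2 CPM was 0.915 for Cd86 and Icosl, 0.893 for Cd86 and Tnfsf9, 0.85 for Icosl and Tnfsf9 and 0.879 for Cd80 and Cd274. It was -0.839 for Cd274 and Tnfsf9 and -0.748 for Cd80 and Icosl. Cd40 stood alone, with r between -0.071 and 0.366 to the other members. The spread between the highest and the lowest group mean was 33.7-fold for Cd86 (I-BET at 24 hours over RANKL at 14 hours), 20.6-fold for Icosl (RANKL plus I-BET at 4 hours over RANKL at 24 hours) and 4.31-fold for Tnfsf9 (I-BET at 24 hours over RANKL at 24 hours), with the others between. In the order of the 10 group means, the libraries of neighbouring groups overlapped in 8 of 9 places for Cd274 and for Tnfsf9, and in 3 of 9 for Cd83. Library 1 was above library 2 in 10 of 10 groups for Cd274 and in 0 of 10 for Tnfsf9, so the overlap includes an offset that the numbered libraries share.

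The genes whose levels were most like a member's over the same 10 groups, among tested genes of at least 5 CPM on average, had r above 0.89 in each case. For Cd274 they were Myc, Ppfibp1 and Tm2d1 (r = 0.987, 0.986 and 0.982), and for Cd80 Tmem199, Itpa-ps1 and Tnfaip8 (0.973, 0.966 and 0.959); Itpa-ps1 is a pseudogene whose reads may be shared with its parent gene. For Icosl they were Myl6, Gnai2 and Tm6sf1 (0.983, 0.98 and 0.979), for Cd86 Scamp1, 2010012O05Rik and Tmem243 (0.978, 0.968 and 0.968), and for Tnfsf9 Hsbp1, Nfe2l2 and Pea15a (0.985, 0.974 and 0.956). For Cd83 they were Dram2, Tpt1 and Map3k8 (0.923, 0.913 and 0.908). For Cd40 they were Fam188a, St3gal1 and Gripap1 (0.952, 0.905 and 0.893).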

How the data were processed

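RNA from RAW264.7 cells was sequenced as paired-end poly(A) libraries, per the labels' protocols. The authors deposited whole-number read counts per gene, RPKM values and gene lengths. Per the submitters' processing notes reads were handled with FastQC, STAR 2.5.3a and DESeq2 1.16.1 against GRCm38 (mm10); no source used here names the counting tool or says whether it used strand, so reads of overlapping antisense genes cannot be separated. The deposited RPKM scale by library total, whereas fold changes here use TMM factors. Groups came from the sample titles, and no column of values was left unused.

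Counts of 16042 genes above edgeR's default low-count filter were fitted in all 20 libraries with 1 coefficient per group (edgeR 4.0.16, R 4.3.3, robust quasi-likelihood test, 10 residual degrees of freedom), with Benjamini-Hochberg adjustment over all genes in each of 17 comparisons. All 7 members passed the filter. Same-numbered libraries of different groups deviated together (45 group pairs, r of at least 0.221, median 0.454), so an alternative fit took the numbers as a block that pairs them. The main fit has no such block and ignores this pairing, and calls are from it unless another setting is named. The biological coefficient of variation was 0.162 without and 0.0751 with the block. Replicate libraries differed by far more than counting noise (chi-square per degree of freedom 28.4 to 175). Alternatives were RLE factors, no filter, a CPM filter (1 or more in 4 or more libraries), no robust estimation, DESeq2 1.42.0, the contrast's libraries alone, the replicate block, limma 3.58.1 on log2 of the deposited RPKM with 1 or 0.1 added (genes reaching 1 RPKM in 2 or more libraries), and leave-one-out fits. All 7 members are named in each comparison, up to 3 called genes of the largest change are drawn on for each list and comparison, and 3 genes of highest correlation per member. The members and the 11 gene lists were chosen with earlier results of these data known. Promoters are from RefSeq (GRCm38.p6), with figures drawn in matplotlib 3.10.9.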

Additional observations from a re-analysis of the deposited data

Results flagged for a closer look

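The RANKL effect on Icosl differed between cells with and without I-BET, by the interaction term in edgeR's quasi-likelihood test. Without I-BET the effect is measured against untreated cells of hour 0, so time in culture cannot be told apart from treatment in this term. At 14 hours the log2 fold change by RANKL was -0.37 in cells with I-BET and -2.75 in cells without it, a difference of 2.37 (SE 0.43, adjusted p = 0.0082), and this call was lost without RANKL library 1 (0.0506). At 24 hours it was -0.51 in cells with I-BET and -3.31 in cells without it, a difference of 2.80 (SE 0.46, adjusted p = 0.00201). By limma on log2 RPKM with 1 added neither was called (adjusted p = 0.139 at 14 hours and 0.0915 at 24 hours), and with 0.1 added both were.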

How the results depend on the processing

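Of the members' log2 fold changes, 938 of those under other settings kept their direction and side of the threshold, 67 passed it anew, 27 lost it and 2 changed sign. With 1 library left out, 472 kept both, 72 lost the threshold, 1 gained it and 15 changed sign. The 2 sign changes under other settings were Cd40 with I-BET at 24 hours against untreated cells, at 0.008 and 0.026 by limma on RPKM plus 1 and plus 0.1. With 1 library left out the sign changed against untreated cells for Cd83 with RANKL at 4 hours (-0.001 and -0.038, range -0.038 to 0.099), Cd40 with RANKL at 24 hours (0.020, range -0.453 to 0.020) and with I-BET at 24 hours (0.205, range -0.284 to 0.205), and Tnfsf9 with I-BET at 4 hours (0.106, range -0.505 to 0.106) and at 14 hours (-0.013 and -0.146, range -0.146 to 0.340). It changed for Cd86 with RANKL plus I-BET against I-BET at 24 hours (0.021, range -0.822 to 0.021) and in the interaction at 4 hours (0.143, range -0.857 to 0.143). Within RANKL it changed between 4 and 14 hours for Cd274 (0.074 and 0.005, range -0.410 to 0.074) and between 14 and 24 hours for Cd86 (-0.034, range -0.034 to 1.2), Icosl (0.093, range -1.745 to 0.093) and Tnfsf9 (0.184 and 0.234, range -0.516 to 0.234). None of these was called.

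Counts of members called moved by over 1.5 times as follows. With library number as a block, 4 were called for RANKL at 4 hours, 5 for I-BET at 14 hours (both against untreated cells), 5, 4 and 2 for RANKL plus I-BET against I-BET at 4, 14 and 24 hours, 3 between 14 and 24 hours of RANKL, and 3, 4 and 4 in the interaction at 4, 14 and 24 hours. With the contrast's libraries alone, 1 and 3 were called for RANKL at 4 and 24 hours, 1 for I-BET at 4 hours, and 0 for RANKL plus I-BET against I-BET at 4 and at 14 hours and between 14 and 24 hours of RANKL. With no filter and with DESeq2, 5 were called for I-BET at 14 hours, 2 for RANKL plus I-BET against I-BET at 24 hours and 2 between 14 and 24 hours of RANKL. In the interaction, no filter called 2 at each of 4, 14 and 24 hours and DESeq2 called 1 at 4 hours and 2 at 24 hours. By limma on RPKM plus 1, 1 was called for RANKL plus I-BET against I-BET at 14 hours and 0 in the interaction at 14 and 24 hours; plus 0.1, 1 was called in the first of these. Limma could not take Cd86, which was under its filter. The cause of these moves was not tested. Leaving out 1 library gave 1 to 2, 2 to 4 and 2 to 4 members called for RANKL at 4, 14 and 24 hours, 0 to 1, 0 to 1 and 2 to 4 for I-BET, 1 to 3, 3 to 6 and 6 to 7 for RANKL plus I-BET against RANKL, and 0 to 2, 0 to 0 and 0 to 0 against I-BET. It gave 4 to 4 between 4 and 14 hours of RANKL, 0 to 1 between 14 and 24 hours, and 0 to 0, 0 to 1 and 1 to 2 in the interaction. Of 5126 list counts under alternatives 633 moved by over 1.5 times.

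Over all genes, the block called 2325 in place of 627 for RANKL at 4 hours, 7475 in place of 4299 for the combination against RANKL at 24 hours, 473 in place of 42 against I-BET at 24 hours and 195 in place of 0 in the interaction at 4 hours. By limma on RPKM the median of all genes lay between -0.108 and 0.131 over the comparisons. Depth limits Cd86 most, with 2 to 5 counts in each late RANKL library and 4 in untreated library 1.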
